A study of Rattus norvegicus with 10 samples.

Results

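The genes that write, copy, read and erase DNA methylation were followed in round spermatids, the haploid germ cells that form after meiosis in the testis. All 9 genes of the set were chosen by name: the methyltransferases Dnmt1, Dnmt3a and Dnmt3b, their cofactors Dnmt3l and Uhrf1, the dioxygenases Tet1, Tet2 and Tet3, and the reader Mbd2. Each name matched 1 of the 32545 genes in the files. The cells came from wild-type Brown Norway rats aged 4 to 6 months (young, 5 samples) or 18 to 20 months (aged, 5 samples), kept under the same conditions, and were separated by STA-PUT, which sorts testis cells by sedimentation speed. Whether the samples of a group are separate animals is not stated in the labels, so p-values measure only the spread between these samples. Messenger RNA libraries were made from 1.3 ug of total RNA each. Levels are given in FPKM, the count of sequenced fragments scaled to gene length in kilobases and by a depth factor of each library.

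DNA methylation in mammals is the addition of a methyl group to cytosine, mostly where a guanine follows it (a CpG). Dnmt3a and Dnmt3b add the mark to unmethylated DNA and Dnmt1, guided by Uhrf1, copies it after replication, while the Tet enzymes oxidise methylcytosine and so open a path to its removal. In the male germ line most methylation is laid down before birth in cells that precede the spermatogonia, with Dnmt3l as a cofactor, and round spermatids no longer replicate their DNA.

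Recovered depth was 14488222 to 18203223 fragments per library, so that 1 FPKM over 1 kilobase stands for 14.6 to 18.6 fragments. All 10 round spermatid markers averaged at least 1 FPKM, as did all 10 spermatocyte, 9 of 10 peritubular and 9 of 10 macrophage markers. The round spermatid markers summed to 20200 to 32300 FPKM in young and 20200 to 26600 FPKM in aged libraries. Most of that sum was Prm1, Tnp2 and Tnp1, with means of 12200, 6020 and 5360 FPKM in the young group. Their aged means were 10100, 5620 and 5140 FPKM. Catsper1, the lowest of these markers, averaged 42.1 FPKM in the young and 42.2 FPKM in the aged group. Spermatocyte markers summed to 656 to 775 FPKM in young and 589 to 686 FPKM in aged libraries, and spermatogonial markers to 73.0 to 88.1 and 73.5 to 86.9 FPKM. Most of the spermatocyte sum was Pgk2, with means of 530 FPKM in the young and 489 FPKM in the aged group. Of the 10 spermatocyte markers, 0 had a higher mean in the aged group. Markers of somatic testis cells were present as well. The 10 peritubular markers summed to 60.9 to 92.6 FPKM in young and 97.5 to 260 FPKM in aged libraries, and the 7 Leydig cell markers to 5.13 to 8.28 and 10.8 to 120 FPKM, so neither pair of groups overlapped. The Sertoli cell sums were 19.0 to 24.2 and 19.2 to 92.8 FPKM and the macrophage sums 10.3 to 20.8 and 14.5 to 91.5 FPKM. Endothelial (6 genes matched), lymphocyte and erythroid (4 genes matched) sums reached 19.2, 15.8 and 20.1 FPKM at most. Aged replicate 2 held the highest sum of each of these 7 somatic lists, and no matched marker was at 0 in every library.

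None of the 9 methylation genes passed the test for a difference between the ages. Over the 10 libraries Uhrf1 and Mbd2 averaged 6.56 and 6.36 FPKM, the 4 Dnmt genes between 0.754 and 2.53 FPKM, and the 3 Tet genes between 0.0947 and 1.07 FPKM. Limma on log2(FPKM + 1) fits a linear model to each gene and moderates its variance with that of all genes. By this test 0 of the 6 members with a mean of at least 1 FPKM had a Benjamini-Hochberg adjusted p under 0.05. Over all 12985 tested genes 0 passed as well (0%). Voom, which weights log2 counts of the recovered fragments by their precision, also called 0. At an unadjusted limma p under 0.05 there were 0 of the 6 members, beside 1544 of all tested genes (11.9%). The groups overlapped for each of the 9 members, where 338 tested genes (2.6%) had groups that did not overlap. The 6 members had a median log2 difference, aged minus young, of -0.02, and all tested genes of -0.015. Dnmt3b, Tet1 and Tet3 averaged under 1 FPKM, so their differences below come from the same fit run on the 24839 genes above 0 in any library, in which 0 genes passed (0%) and 2379 (9.58%) had an unadjusted p under 0.05. In such bulk samples, fewer cells of a type and less RNA per cell cannot be told apart.

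**Figure D1:**
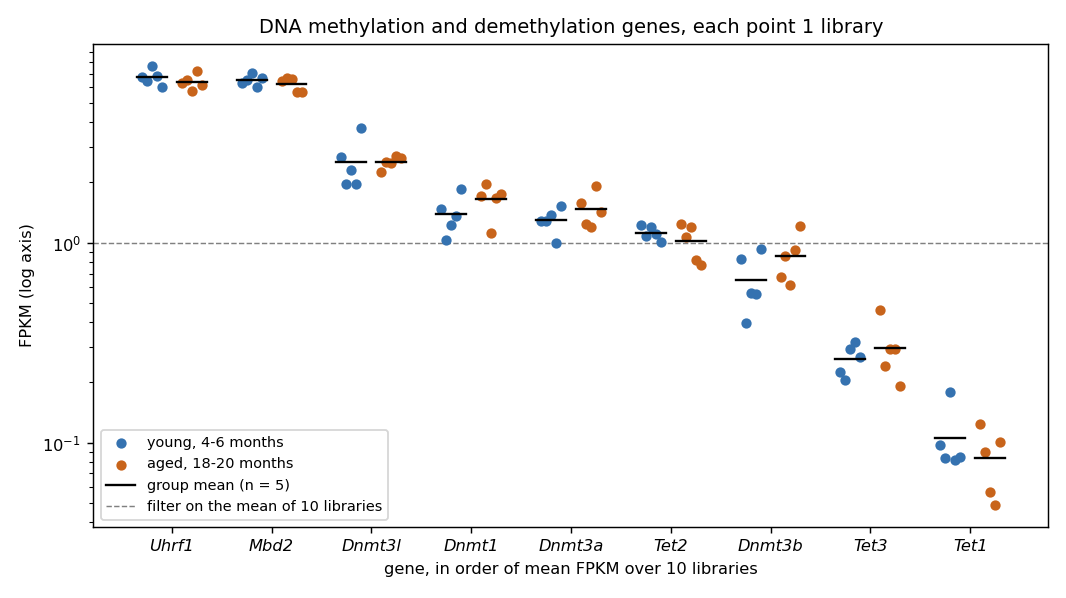
FPKM of the 9 genes (log axis) in 5 young and 5 aged libraries, with each point 1 library, black bars the group means and the dashed line the filter of 1 FPKM on the mean. The points of both ages overlap for every gene, and Uhrf1 and Mbd2 lie above the other 7 genes in all libraries.

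Dnmt1, the maintenance methyltransferase (ENSRNOG00000039859, chromosome 8, 21922515 to 21968495, minus strand), stood at 1.47, 1.03, 1.23, 1.36 and 1.85 FPKM in young replicates 1 to 5 and at 1.71, 1.97, 1.12, 1.68 and 1.74 FPKM in aged replicates 1 to 5. Only aged replicate 2 lay above the highest young library, and 4 of 5 aged libraries lay above the young median. The means were 1.39 ± 0.307 FPKM in the young and 1.65 ± 0.314 FPKM in the aged group (SD, n = 5), a log2 difference of 0.15 (SE 0.12, 95% interval -0.12 to 0.41, limma adjusted p = 0.604). Aged replicate 2 also held the highest somatic marker score, the mean deviation of 25 Sertoli, Leydig, peritubular and macrophage genes on the log2 scale, at 1.60, while aged replicate 1 stood at 0.64 and the other 8 libraries between -0.66 and 0.08. The score ran from -0.66 to -0.14 in young and from -0.13 to 1.60 in aged libraries, with no overlap. A fit with the score as a covariate therefore cannot tell age and score apart. In that fit the log2 difference of Dnmt1 was -0.04 (SE 0.14), and without aged replicates 1 and 2 it was 0.07. It was 0.23 without aged replicate 3, the lowest aged library, 0.09 without young replicate 2, the lowest of all, and 0.27 by voom.

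Uhrf1, which binds half-methylated CpG sites and brings Dnmt1 to them (ENSRNOG00000048411, chromosome 9, 10738222 to 10757954, minus strand), was the most abundant of the 9 genes. It stood at 6.77, 6.43, 7.65, 6.78 and 6.02 FPKM in the young and at 6.29, 6.52, 5.73, 7.26 and 6.15 FPKM in the aged libraries, in replicate order. The lowest library of all was aged replicate 3 and the highest young replicate 3. Means were 6.73 ± 0.604 FPKM in the young and 6.39 ± 0.564 FPKM in the aged group (SD, n = 5), and the log2 difference was -0.07 (SE 0.08, 95% interval -0.23 to 0.10, limma adjusted p = 0.721). Its counts were 358 to 470 fragments per library. Without young replicate 3 or aged replicate 3 the log2 difference was -0.02 or -0.03. The mean of Uhrf1 was 4.32 times that of Dnmt1, the enzyme it guides.

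Dnmt3a, an enzyme of new methylation (ENSRNOG00000026649, chromosome 6, 28235695 to 28340577, plus strand), stood at 1.28, 1.29, 1.37, 0.992 and 1.53 FPKM in the young and at 1.58, 1.24, 1.20, 1.92 and 1.42 FPKM in the aged libraries. Aged replicates 1 and 4 lay above the young range and the other 3 within it. Its means were 1.29 ± 0.195 FPKM in the young and 1.47 ± 0.293 FPKM in the aged group, a log2 difference of 0.10 (SE 0.11, 95% interval -0.13 to 0.34, limma adjusted p = 0.677). Without aged replicate 4, the highest library, it was 0.04, without young replicate 4, the lowest, 0.05, and by voom 0.20. A pseudogene on the same strand, AABR07063314.1, lies within these coordinates and reached at most 0.182 FPKM. No other member shared its position with another gene of the files.

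Dnmt3b, the second enzyme of new methylation (ENSRNOG00000010625, chromosome 3, 149131785 to 149208786, plus strand), was the least abundant of the Dnmt genes. It stood at 0.828, 0.397, 0.562, 0.551 and 0.926 FPKM in the young and at 0.671, 0.853, 0.613, 0.923 and 1.21 FPKM in the aged libraries. All 5 aged libraries lay above the young median of 0.562 FPKM, but only aged replicate 5 lay above the young range. The means were 0.653 ± 0.217 FPKM in the young and 0.855 ± 0.237 FPKM in the aged group (SD, n = 5), and the log2 difference was 0.17 (SE 0.12, limma adjusted p = 0.628). A pseudocount of 1 compresses such low values. Voom, which does not add 1 FPKM and also differs in scaling, gave a larger log2 difference of 0.42. Its 95% interval was -0.12 to 0.96 (voom adjusted p = 0.568). The counts behind these values were 23 to 65 fragments per library.

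Dnmt3l, which has no catalytic activity of its own and stimulates Dnmt3a and Dnmt3b (ENSRNOG00000001212, chromosome 20, 11344514 to 11359090, minus strand), had the highest level of the Dnmt genes. It stood at 2.67, 1.95, 2.31, 1.96 and 3.76 FPKM in the young and at 2.27, 2.53, 2.49, 2.72 and 2.66 FPKM in the aged libraries. Young replicates 2 and 5 were the lowest and highest of all 10, and the whole aged group lay between them. Means were 2.53 ± 0.748 FPKM in the young and 2.53 ± 0.174 FPKM in the aged group (SD, n = 5), a log2 difference of 0.02 (SE 0.13, 95% interval -0.26 to 0.30, limma adjusted p = 0.946). Without young replicate 5 the log2 difference was 0.14, and without young replicate 2 or 4 it was -0.04 or -0.03. The aged libraries varied by 6.89% (SD over mean), less than the 11.7% that counting error alone gives at this depth, and the young libraries by 29.5%. As a fact noted after the values were seen, the libraries with the 3 highest Dnmt3l levels, young replicate 5, aged replicate 4 and young replicate 1, were also those with the 3 highest sums of the spermatogonial markers, at 86.7, 86.9 and 88.1 FPKM. Most of the spermatogonial sum was Uchl1 and Id4, with means of 36.2 and 27.8 FPKM in the young and 35.4 and 25.5 FPKM in the aged group. Young replicates 5 and 1 also had the highest spermatocyte sums (775 and 730 FPKM) and round spermatid sums (32300 and 28600 FPKM). The part of any of these in the Dnmt3l values was not tested.

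Young replicate 5 was the highest young library for each of Dnmt1, Dnmt3a, Dnmt3b and Dnmt3l, and the lowest young library for Uhrf1 and Tet2. The summed level of the 4 Dnmt genes was 6.25, 4.66, 5.47, 4.87 and 8.06 FPKM in the young and 6.23, 6.59, 5.42, 7.23 and 7.03 FPKM in the aged libraries. Without young replicate 5 the log2 differences of Dnmt1, Dnmt3a and Dnmt3b were 0.21, 0.14 and 0.22, with limma adjusted p values of 0.375, 0.538 and 0.459.

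Tet2, a dioxygenase that oxidises methylcytosine (ENSRNOG00000023579, chromosome 2, 238720835 to 238803024, minus strand), was the main Tet transcript. It stood at 1.22, 1.08, 1.20, 1.10 and 1.002 FPKM in the young and at 1.24, 1.06, 1.20, 0.821 and 0.776 FPKM in the aged libraries. Aged replicates 4 and 5 lay below the young range, and aged replicate 1 just above it. The means were 1.12 ± 0.0904 FPKM in the young and 1.02 ± 0.211 FPKM in the aged group (SD, n = 5), and the log2 difference was -0.08 (SE 0.10, 95% interval -0.29 to 0.14, limma adjusted p = 0.743).

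Tet3, the dioxygenase best known for acting on the paternal genome in the zygote (ENSRNOG00000011387, chromosome 4, 115066309 to 115157263, minus strand), stood at 0.224, 0.206, 0.293, 0.319 and 0.267 FPKM in the young libraries. In the aged libraries it stood at 0.461, 0.241, 0.294, 0.294 and 0.192 FPKM. Aged replicate 1 was the highest of all and aged replicate 5 the lowest. Its counts were 19 to 52 fragments per library, and the log2 difference was 0.04 (SE 0.06, limma adjusted p = 0.815), or 0.18 with a 95% interval of -0.35 to 0.71 by voom. Without aged replicate 1 it was -0.01.

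Tet1, the third dioxygenase (ENSRNOG00000000277, chromosome 20, 27366213 to 27437427, plus strand), was close to the limit of detection. It stood at 0.0971, 0.0838, 0.180, 0.0820 and 0.0850 FPKM in the young and at 0.124, 0.0900, 0.0567, 0.0488 and 0.101 FPKM in the aged libraries, which is 5 to 16 fragments per library. Young replicate 3 was the highest, with 16 fragments and an exact Poisson 95% interval of 9.15 to 26.0 fragments, which covers counting error only. The log2 difference was -0.03 (SE 0.03, limma adjusted p = 0.759), or -0.29 with a 95% interval of -1.05 to 0.47 by voom. The libraries varied by 38.6% (SD over mean), where counting error alone gives 32.4%. Without young replicate 3 the log2 difference on the limma scale was -0.0045.

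Mbd2, a protein that binds methylated CpG sites and recruits the NuRD repressor complex (ENSRNOG00000011853, chromosome 18, 65814026 to 65885114, plus strand), varied least. It stood at 6.29, 6.52, 7.02, 6.03 and 6.68 FPKM in the young and at 6.44, 6.70, 6.58, 5.66 and 5.69 FPKM in the aged libraries. Aged replicates 4 and 5 lay below the young range, as they did for Tet2. Means were 6.51 ± 0.377 FPKM in the young and 6.22 ± 0.500 FPKM in the aged group (SD, n = 5), and the log2 difference was -0.06 (SE 0.07, 95% interval -0.21 to 0.09, limma adjusted p = 0.719). Over the 10 libraries Mbd2 varied by 6.99%, where counting error alone gives 7.63%.

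**Figure D2:**
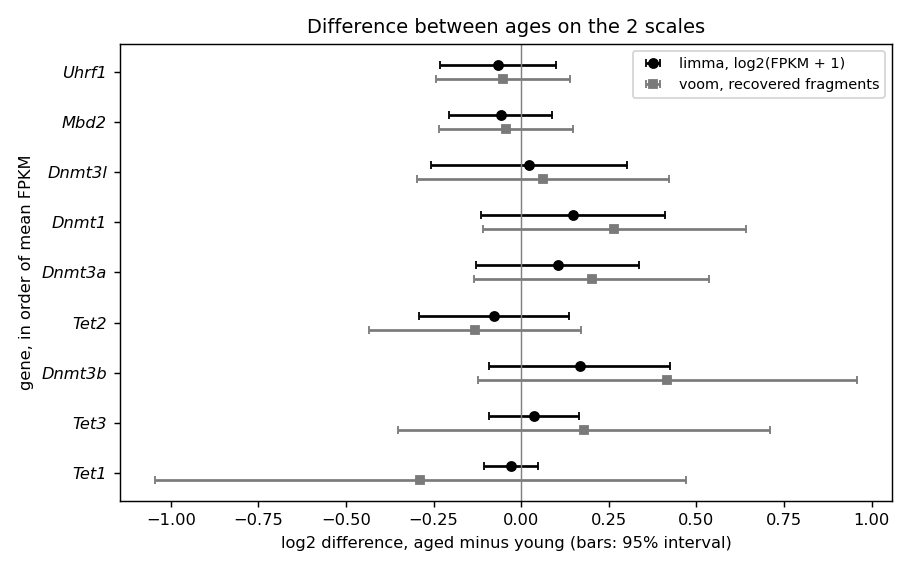
Log2 difference between aged and young round spermatids for the 9 genes, with 95% intervals, on log2(FPKM + 1) by limma (black circles) and on recovered fragments by voom (grey squares). All intervals include 0, and on the fragment scale that of Tet1, at -1.05 to 0.47, is the widest of the 9.

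In order of mean level per gene length, the set ran Uhrf1, Mbd2, Dnmt3l, Dnmt1, Dnmt3a, Tet2, Dnmt3b, Tet3 and Tet1. Uhrf1 and Mbd2 could not be ordered, since Uhrf1 was the higher in 5 of 10 libraries. Mbd2 exceeded Dnmt3l in all 10 libraries with no overlap of their ranges, by a ratio of means of 2.51. Dnmt3l exceeded Dnmt1 in 10 of 10 libraries although the ranges overlapped. Dnmt1 and Dnmt3a were not separated beyond their spread (Dnmt1 higher in 6 of 10), while Dnmt3a exceeded Tet2 in 9 and Tet2 exceeded Dnmt3b in 8 of 10. Dnmt3b exceeded Tet3, and Tet3 exceeded Tet1, in every library. Among the tested genes Uhrf1 and Mbd2 lay at percentiles 45.6 and 44.9 of mean FPKM, near the middle, and Dnmt3l, Dnmt1, Dnmt3a and Tet2 at 23.4, 10.4, 7.94 and 1.74.

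Per gene length, the members of each family kept the same order of mean share at both ages. Dnmt3l made up 42.8% ± 2.35 of the summed Dnmt FPKM in young and 39.2% ± 3.85 in aged libraries (SD, n = 5), Dnmt1 23.8% ± 2.42 and 25.2% ± 3.60, Dnmt3a 22.5% ± 3.66 and 22.6% ± 3.30, and Dnmt3b 10.97% ± 1.74 and 13.01% ± 2.55. The share of Dnmt3b was highest in aged replicate 5, at 17.3%, and lowest in young replicate 2, at 8.52%. Tet2 made up 75.4% ± 3.36 of the summed Tet FPKM in young and 72.9% ± 3.92 in aged libraries, Tet3 17.6% ± 2.88 and 21.0% ± 3.99, and Tet1 6.98% ± 2.13 and 6.11% ± 2.30. By fragments not scaled to length the Dnmt order was another one, with Dnmt1 at 40.7% and 41.9%, Dnmt3a at 27.9% and 27.3% and Dnmt3l at 20.9% and 18.7% in young and aged libraries, while Tet2 still led the Tet genes at 79.6% and 77.4%. These shares were described without a test, and the group ranges overlapped for all 7 genes. The ratio of the summed Dnmt to the summed Tet level was 3.24 to 5.96 in young and 3.42 to 6.58 in aged libraries, with young replicate 5 and aged replicates 4 and 5 the 3 highest.

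**Figure D3:**
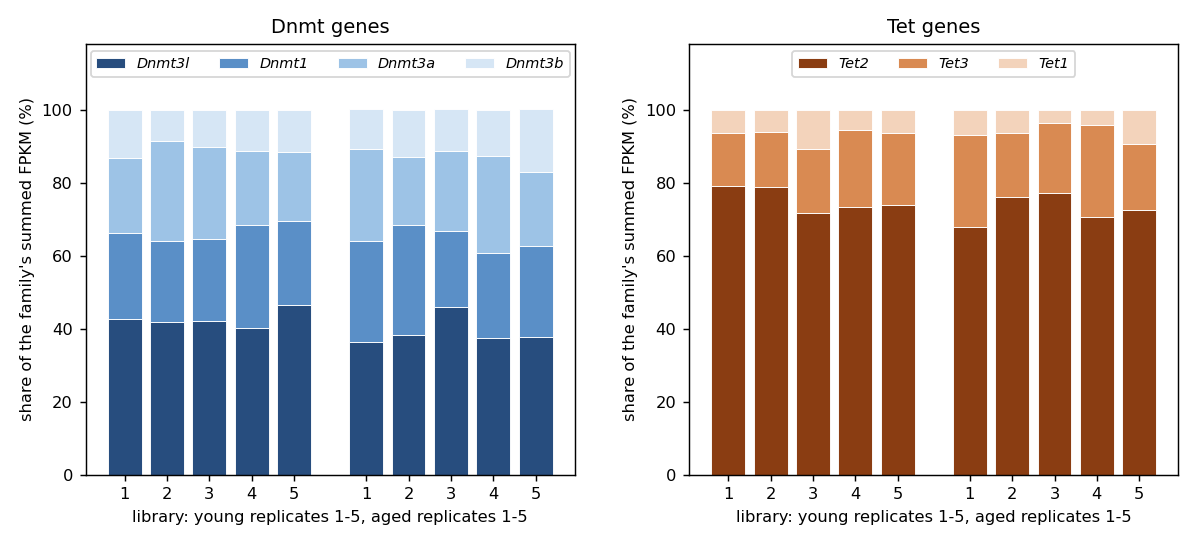
Share of each gene in the summed FPKM of its family (percent, scaled to gene length), for the Dnmt genes on the left and the Tet genes on the right, with 1 bar per library. Dnmt3l is the largest part of the Dnmt sum (36.4% to 46.6%) and Tet2 of the Tet sum (67.9% to 79.2%) in all 10 libraries.

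The start regions of the members differ widely in CpG content, which is given here as a property of the genes, since these RNA data carry no measure of methylation. RefSeq start regions of the GRCr8 build were matched by symbol for 8 of the 9 members, 5 of which have a single listed start. In the 250 bases before those starts, CpG pairs numbered 8 for Dnmt3l, 9 for Dnmt1, 18 for Dnmt3a, 33 for Mbd2 and 38 for Tet2, where the median of all 33469 such windows was 5. Tet2 lay at percentile 98.6 and Dnmt3l at percentile 61.5 of all windows. Tet1, Tet3 and Uhrf1 have 3, 4 and 3 listed starts, with 1 to 12, 3 to 22 and 6 to 30 CpG pairs. Uhrf1 lies on the plus strand in GRCr8 and on the minus strand in the deposited files, which are of an unstated build, and the match rests on the symbol alone. The leading transcript of each family is shown, as these are the CpG-poorest and CpG-richest of the 5 single-start genes: Dnmt3l at chr20:10628990-10629239 and Tet2 at chr2:224746187-224746436, both on the minus strand, 5′ to 3′, with CpG pairs in capitals.
Dnmt3l: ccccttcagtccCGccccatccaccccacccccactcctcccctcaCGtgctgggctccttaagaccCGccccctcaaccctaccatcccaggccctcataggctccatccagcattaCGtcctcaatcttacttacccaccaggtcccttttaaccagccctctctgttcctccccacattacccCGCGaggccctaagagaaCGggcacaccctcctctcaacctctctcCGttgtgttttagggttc
Tet2: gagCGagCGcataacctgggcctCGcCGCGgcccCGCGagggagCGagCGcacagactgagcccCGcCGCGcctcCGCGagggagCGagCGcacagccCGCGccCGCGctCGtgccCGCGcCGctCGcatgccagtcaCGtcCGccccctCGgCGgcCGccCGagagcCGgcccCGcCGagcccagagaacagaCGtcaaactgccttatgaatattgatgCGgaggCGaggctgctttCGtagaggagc

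Genes that work with the 9 members were followed through 5 lists of partners, readers, complex subunits, repair factors and methyl donor enzymes. Of 61 listed genes 57 matched a single symbol and 40 averaged at least 1 FPKM. By limma 0 of these 40 passed in either direction (0% of all tested genes passed), and 6 had an unadjusted p under 0.05, beside 11.9% of all tested genes. Their median log2 difference was -0.02, with 17 higher and 23 lower in aged samples. Of all 12985 tested genes 5902 were higher and 7083 lower, with a median of -0.015. The direction depends on scaling. Of all tested genes with an unadjusted p under 0.05 in each fit, 46.6% were higher by limma on FPKM. With TPM scaling 61.2% were higher, and by voom 61.4%.

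Among partners and recruiters of the methyltransferases, 0 of 8 tested genes passed, with 6 lower and a median of -0.15. Uhrf2, the paralogue of Uhrf1, averaged 13.1 ± 0.674 FPKM in the young and 11.8 ± 1.16 FPKM in the aged group, about 1.90 times the level of Uhrf1 over all libraries. Usp7, a deubiquitinase that binds Dnmt1 and Uhrf1, averaged 186 ± 14.2 and 200 ± 10.8 FPKM. Trim28, a corepressor that guides methylation at imprinted and repeat sequences, averaged 398 ± 12 and 383 ± 24.3 FPKM. Its log2 difference was -0.06 (SE 0.05, limma adjusted p = 0.626).

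The other genes of the methyl-CpG reader families included some far above Mbd2. Mbd3, a NuRD subunit of the same family that does not bind methylated CpG selectively in mammals, averaged 75.2 ± 3.83 FPKM in the young and 76.7 ± 6.10 FPKM in the aged group, and Mbd1, a methyl-CpG binding repressor, 5.21 ± 0.691 and 4.83 ± 0.515 FPKM. Mbd4, a glycosylase that also repairs mismatches at CpG sites, averaged 64.7 ± 5.93 and 63.6 ± 4.45 FPKM. Of 8 tested genes of this list 0 passed, with 4 higher and 4 lower and a median of 0.00. Mbd3l2, a relative of Mbd3 chosen here after its values were seen, had the lowest difference of the related genes, at -0.61 (SE 0.17, limma adjusted p = 0.319). It stood at 1.49, 2.35, 1.72, 1.85 and 1.72 FPKM in the young and at 1.75, 0.360, 1.02, 0.790 and 0.544 FPKM in the aged libraries. Aged replicate 1 lay within the young range and the other 4 below it.

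NuRD is the histone deacetylase complex that Mbd2 recruits, and 0 of its 9 tested subunits passed, with 4 higher, 5 lower and a median of -0.04. Hdac2, its deacetylase, averaged 39.6 ± 1.13 FPKM in the young and 42.6 ± 1.80 FPKM in the aged group, a log2 difference of 0.10 (SE 0.04, limma adjusted p = 0.391). The remodelling ATPases Chd4 and Chd3 averaged 39.1 ± 2.75 and 18.6 ± 1.88 FPKM in the young and 38.1 ± 1.19 and 17.2 ± 0.71 FPKM in the aged group.

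Among partners of the Tet enzymes and factors that repair modified cytosine, only 5 of 14 listed genes reached the test and 0 passed. Tdg, the glycosylase that removes oxidised methylcytosine and is named here for that role, was under the filter at 0.551 ± 0.114 FPKM in the young and 0.732 ± 0.163 FPKM in the aged group. Ogt, a sugar transferase that binds Tet proteins, averaged 4.29 ± 0.371 and 4.11 ± 0.321 FPKM. Apex1 and Xrcc1, of base excision repair, had log2 differences of 0.11 and 0.12 with limma adjusted p values of 0.595 and 0.480. Gadd45g, a stress-response gene linked to demethylation and chosen here after its values were seen, was the 1 tested related gene of 40 whose groups did not overlap, beside 2.6% of all tested genes. It stood at 1.03, 0.834, 2.01, 1.21 and 1.43 FPKM in the young and at 3.85, 7.95, 2.38, 2.68 and 2.48 FPKM in the aged libraries. The 2 highest were aged replicates 2 and 1, which also led the somatic marker score. Its log2 difference was 0.99 (SE 0.25, limma adjusted p = 0.319), and 0.75 (SE 0.16, adjusted p = 0.250) without aged replicate 2.

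Enzymes that supply the methyl donor and the Tet cofactor had 0 of 10 tested genes past the threshold, 3 higher and 7 lower, with a median of -0.05. Mat2a, which makes S-adenosylmethionine, averaged 8.21 ± 0.912 FPKM in the young and 8.24 ± 1.37 FPKM in the aged group. Mat2b, its regulatory subunit, averaged 11.9 ± 1.09 and 12.5 ± 0.414 FPKM, and Ahcy, which clears the product of methylation, 8.41 ± 0.714 and 7.93 ± 0.875 FPKM. Idh2, a gene of this list named after its values were seen, was under the filter and not tested. It stood at 0.1695 to 0.4299 FPKM in young and 0.4526 to 2.809 FPKM in aged libraries, with no overlap. Aged replicates 2 and 1 were the highest and also led the somatic marker score. How many genes under the filter had groups that did not overlap was not counted.

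**Figure D4:**
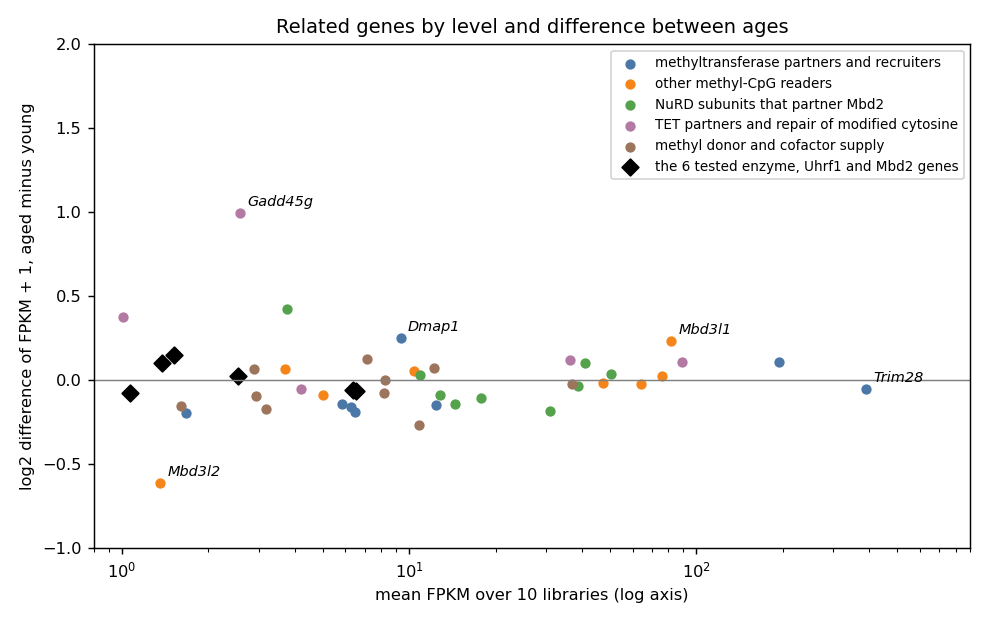
Log2 difference between aged and young samples against mean FPKM (log axis) for the 40 tested related genes, coloured by list, and the 6 tested members (black diamonds). The members lie between -0.08 and 0.15, and the related genes between -0.61 (Mbd3l2) and 0.99 (Gadd45g).

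For Dnmt3a, Dnmt3l, Uhrf1, Tet2 and Mbd2 the protein-coding gene most alike in its log2(FPKM + 1) pattern over the 10 libraries was found among 11129 others, as a description. These were Use1 for Dnmt3a (Pearson r = 0.946), Klk1c9 for Dnmt3l (0.893), Cyb5a for Uhrf1 (0.896), Map9 for Tet2 (0.899) and Slc52a3 for Mbd2 (0.913). Each r is the largest of 11129 over only 10 points, a choice that gives high values by itself, and no link between the genes was tested. The 10 points share the 2 age groups and the differences in somatic cell markers given above.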

How the data were processed

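The authors deposited FPKM values, 1 file per sample, with gene positions and lengths, per the file headers. HISAT2 2.0.5 and featureCounts 1.5.0-p3 are named in the submitters' processing notes. The sources used here give no settings, strand or genome build, so coordinates are those of the files. Whole fragments were recovered from FPKM, gene length and each sample's smallest step. Within a tolerance of 0.001, 100% of values above 0 were whole. Intervals from fragments cover counting error only. The depth factor did not follow the recovered total alone. Young replicate 5 had 15977667 fragments, at 15.43 per FPKM and kilobase, and aged replicate 2 had 15992576, at 16.39. Voom used the recovered totals, so it also differs from limma in scaling.

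The members and gene lists were chosen with earlier results of these data known. The test was limma 3.58.1 in R 4.3.3 (eBayes with a trend, two-sided, Benjamini-Hochberg) on log2(FPKM + 1). It covered 12985 genes whose mean reached 1 FPKM. Members under that mean were read from the fit without a filter. Fold changes on this scale understate low genes, so voom on recovered fragments was added. The fit was tested on simulated data. Named were all members, the first 3 tested genes of each list, any that passed, and the gene most alike per member. Tdg, Gadd45g, Mbd3l2 and Idh2 were named outside this rule, after their values were seen. Same-numbered young and aged samples deviated from their group means with correlations of -0.158 to 0.054. That gave no sign of pairing by number, but expression values cannot show how samples were matched or handled. Alternatives were another pseudocount, other filters, median-of-ratios and TPM scaling, voom, a replicate block, a somatic score covariate and leave-outs. Cxxc5, listed on 2 rows, and Dnmt3c and Hdac1, which matched no name, were not analysed here. Values of items withheld for evaluation are left out.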

Additional observations from a re-analysis of the deposited data

Results flagged for a closer look

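Tet1 in young replicate 3 stood at 0.180 FPKM, far from the other 4 young libraries at 0.0820 to 0.0971 FPKM. The gap to the nearest of them was 0.846 of the group's range. Of the 18 groups of 5 values examined this was the 1 set apart, and chance gives about 1 in 20. The value rests on 16 fragments.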

How the results depend on the processing

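Under each of the alternatives run, 0 members and 0 related genes passed. Median-of-ratios scaling left the member differences as in the main fit, with a median shift of 0 over all tested genes, so it adds no separate check. For Dnmt3a, Dnmt3b, Uhrf1, Tet1, Tet2 and Mbd2 each alternative kept the sign, with log2 differences of 0.0426 to 0.2009, 0.1009 to 0.4176, -0.1062 to -0.0237, -0.288 to -0.0045, -0.1453 to -0.0326 and -0.135 to -0.0301. Adding the somatic score as a covariate gave log2 differences of -0.0365 for Dnmt1 and -0.028 for Dnmt3l. The score did not overlap between the ages, so that fit cannot separate age from score. Leaving out 1 library at a time, that of Dnmt3l ranged from -0.0362 to 0.1362 and that of Tet3 from -0.0074 (without aged replicate 1) to 0.0659, and without aged replicates 1 and 2 together that of Tet3 was -0.0022. Without young replicate 1 or 2, 1 gene of all tested passed, and neither was a member. With the replicate block 0 genes passed, 0 members among them, and Dnmt1 had an adjusted p of 0.661. Of the 5 young samples 1 deviated most like the aged sample of its own number. Shares from fragments not scaled to gene length were 40.7% and 41.9% for Dnmt1 (young, aged), 27.9% and 27.3% for Dnmt3a, 20.9% and 18.7% for Dnmt3l, 79.6% and 77.4% for Tet2, and 14.6% for Tet3 in young, since longer genes yield more fragments, so that Dnmt1 and not Dnmt3l led its family. Tet1 averaged under 0.1 FPKM and so had no value under that filter. Depth limits Tet1 and Tet3 most.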
